A study of Homo sapiens with 8 samples.

Results

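The regions described here are stretches of the genome where an mTOR peak was listed in prostate cancer cells with a control hairpin and androgen, and in none of the 3 other mTOR libraries. The peaks of the 4 mTOR libraries on chromosomes 1 to 22, X and Y were merged wherever they overlapped by at least 1 bp, and a merged stretch is called a union region. Of 61118 union regions, 4418 (7.23%) held a peak of the control hairpin library with androgen alone, and each of them held a single peak. They made up 17.3% of the 25581 union regions with a peak in that library. The cells were LNCaP, an androgen-responsive line established from human prostate cancer, and carried either shEV, an empty hairpin vector, or shFoxA1, a hairpin directed at the transcription factor FoxA1. All cultures first spent 48 h without androgen in 2% charcoal-stripped serum and then received, for 24 h, either ethanol vehicle at 0.1% (EtOH) or the synthetic androgen R1881 at 10 nM. DNA bound to mTOR was collected by chromatin immunoprecipitation and sequenced with paired 150 bp reads. The 4 groups were shEV EtOH, shEV R1881, shFoxA1 EtOH and shFoxA1 R1881, with 1 mTOR library each, so no difference between groups could be tested against replicates, and the 4 input DNA libraries were not analysed here. The binding data do not measure the FoxA1 protein left after knockdown or the expression of any gene.

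mTOR is the kinase of a pair of protein complexes that couple nutrients and growth factors to protein synthesis and metabolism, and a share of it is also found in the nucleus and at chromatin. Androgen acts on transcription through response elements built from hexamers of the AGAACA type, most of them far from promoters. FoxA1 is a pioneer factor, a protein that binds forkhead motifs in closed chromatin and makes them accessible, and in prostate cells it shapes which of these elements are used. The comparison asks which regions listed with androgen under the control hairpin were not listed after FoxA1 knockdown. The regions were chosen by the presence or absence of a peak in the 4 thresholded lists, so their absence from the other lists and their scores are a description and not a finding.

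The sequences shown first are the promoters under the 5 regions with the highest score among those annotated to the promoter of a protein-coding gene, because a promoter ties a region to a gene most directly. Each line gives the 250 bases before the RefSeq transcription start site (TSS) in GRCh38.p14, 5′ to 3′. Capitals mark matches, on either strand, to AGAACA (the androgen response hexamer), TGTTTAC or TGTTTGC (forkhead factors such as FoxA1) and GGGCGG (SP and KLF factors).
LRRC23 (chr12:6904572-6904821, plus strand): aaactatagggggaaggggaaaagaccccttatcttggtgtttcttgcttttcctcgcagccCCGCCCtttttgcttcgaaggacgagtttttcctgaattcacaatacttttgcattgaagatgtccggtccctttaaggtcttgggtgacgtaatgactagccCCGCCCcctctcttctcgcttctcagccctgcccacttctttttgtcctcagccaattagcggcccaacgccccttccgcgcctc
NUDT13 (chr10:73110205-73110454, plus strand): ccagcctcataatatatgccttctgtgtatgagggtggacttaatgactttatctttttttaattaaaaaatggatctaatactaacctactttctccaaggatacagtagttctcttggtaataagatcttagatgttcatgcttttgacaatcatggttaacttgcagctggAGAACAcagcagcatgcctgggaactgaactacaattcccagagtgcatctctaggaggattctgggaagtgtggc
REP15 (chr12:27696197-27696446, plus strand): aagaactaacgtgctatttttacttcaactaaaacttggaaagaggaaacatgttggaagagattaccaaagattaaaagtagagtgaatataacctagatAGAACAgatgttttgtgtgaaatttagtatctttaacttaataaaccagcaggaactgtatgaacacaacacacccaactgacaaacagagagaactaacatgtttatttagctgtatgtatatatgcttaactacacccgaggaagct
PRKACB (chr1:84144021-84144270, plus strand): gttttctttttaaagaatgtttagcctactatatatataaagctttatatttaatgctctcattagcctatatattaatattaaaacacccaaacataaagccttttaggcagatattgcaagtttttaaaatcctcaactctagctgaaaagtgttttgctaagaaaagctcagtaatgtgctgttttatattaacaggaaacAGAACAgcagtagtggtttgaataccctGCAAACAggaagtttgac
NDFIP2 (chr13:79480905-79481154, plus strand): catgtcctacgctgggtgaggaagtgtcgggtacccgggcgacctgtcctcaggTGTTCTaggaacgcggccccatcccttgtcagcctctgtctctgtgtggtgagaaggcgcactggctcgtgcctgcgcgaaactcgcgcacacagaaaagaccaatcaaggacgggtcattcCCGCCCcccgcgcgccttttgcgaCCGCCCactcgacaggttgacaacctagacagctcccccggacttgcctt
The peak covered 223 of the 250 bases at LRRC23, 117 at NUDT13, 250 at REP15, 165 at PRKACB and 240 at NDFIP2. The androgen response hexamer stood in 4 of the 5 sequences, those of NUDT13, REP15, PRKACB and NDFIP2. It began 76 bases before the start site at NUDT13, 149 at REP15, 46 at PRKACB and 196 at NDFIP2. PRKACB also held a forkhead match 18 bases before its start site, and it was the only one of the 5 with a forkhead match. Both matches at PRKACB lay outside the peak, between its end and the start site, whereas every match at the other 4 promoters lay inside it. LRRC23 and NDFIP2 each held 2 GGGCGG matches.

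Over all regions, 100 of the 4418 overlapped at least one RefSeq promoter window of 300 bases (250 before the start site and 50 after it), and they covered 129 windows, some of which overlap each other. Motifs were counted anywhere in a window, also outside the peak. The intervals treat each window as independent, so windows that share bases make them too narrow. The hexamer AGAACA was found in 22 of the 129 windows (17.1%, 95% Wilson interval 11.5 to 24.5%). It was found in 14.8% of all 35116 windows, so the share under the regions lay near that of promoters in general. The share was 7% in the 2516 windows under the other shEV R1881 regions and 10.0% in the 120 windows under regions listed in both androgen libraries alone. The windows under the regions were poorer in G and C than those under the other shEV R1881 regions, with a median of 62.7% against 67.0%, and 58.7% over all windows. GGGCGG moved with that composition and was found in 56.6% of windows under the regions, 71.5% under the other shEV R1881 regions and 45.0% of all windows. The part of base composition in the hexamer counts was not tested.

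Forkhead matches were few at these promoters. TGTTTAC was found in 4 of 129 windows (3.10%) against 3.42% of all windows, and TGTTTGC in 3 (2.33%) against 3.89%. The full androgen response element, searched as AGAACA, any 3 bases and TGTTCT, was found in 0 of 129 windows, with an upper interval bound of 2.89%, and in 1 of all 35116. ETS factor motifs (CCGGAAG) stood in 19.4% of windows under the regions, 19.0% under the other shEV R1881 regions and 10.3% of all windows. The E-box CACGTG stood in 13.2%, 10.5% and 7.26%, and the NRF1 motif, GCGCA followed directly by TGCGC, in 4.65%, 1.67% and 1.24%. The NRF1 share under the regions rested on 6 of 129 windows (2.15 to 9.78%). Among these, the windows of ZNF567 and ZNF567-DT overlap under the same region, as do those of NDUFAF5 and ESF1. AP-1 (TGANTCA) stood in 3.10% of windows under the regions and 7.71% of all windows, CREB/ATF (TGACGTCA) in 1.55% and 1.85%, and YY1 (AAGATGGCG) in 1.55% and 1.75%. All motifs were read on both strands, the full response element contains the hexamer, and a match is a run of letters and not a bound site.

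Among the regions that appeared with androgen in control cells, those missing from both FoxA1 knockdown lists were the most numerous kind. Of 11401 regions with a shEV R1881 peak and no shEV EtOH peak, 4418 (38.8%) were in neither shFoxA1 list. A further 3221 (28.3%) also had a peak in shFoxA1 R1881 alone, 1094 (9.60%) in shFoxA1 EtOH alone and 2668 (23.4%) in both shFoxA1 lists. The control library with vehicle held a set of its own of nearly the same size, 3994 regions. Among regions with a shEV EtOH peak and no shEV R1881 peak, these were likewise the most numerous kind. The others were 3048 in both shFoxA1 lists, 1964 in shFoxA1 EtOH alone and 1298 in shFoxA1 R1881 alone. The leading place of this kind was thus not particular to androgen. The shFoxA1 lists held larger sets of their own, 8994 with vehicle and 12017 with androgen. Regions in a single list thus made up 17.3% of the shEV R1881 regions (16.8 to 17.7%), 16.3% of the shEV EtOH regions, 26.0% of the shFoxA1 EtOH regions and 30.8% of the shFoxA1 R1881 regions. The shFoxA1 lists were also the longer ones, with 35121 peaks (EtOH) and 39570 peaks (R1881) against 24948 and 26074 for shEV. No read totals come with the lists, so the depth is unknown, and longer lists cannot be told apart from deeper or better enriched libraries.

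**Figure D1:**
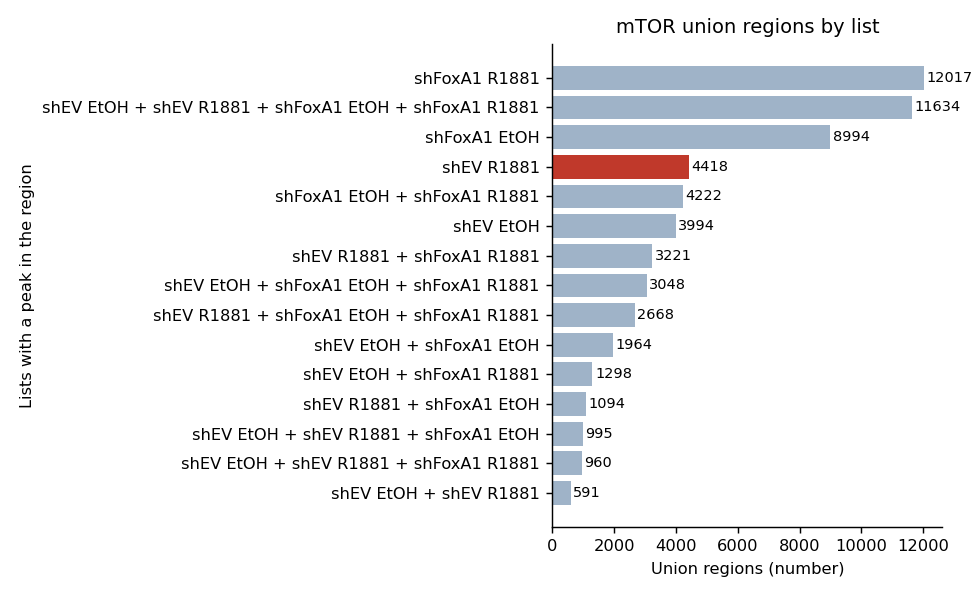
Number of union regions (horizontal axis) for each combination of lists that hold a peak (vertical axis), 1 library per list. The 4418 regions in the shEV R1881 list alone are in red, and the largest class is the 12017 regions in the shFoxA1 R1881 list alone.

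The regions were mostly weak peaks of their list. The peak score is the authors' value, and what it measures is not stated in the sources read, so it ranks peaks only within the shEV R1881 list. The median score of the 4418 regions was 34, with quartiles of 27 and 50, a lowest value of 14 and a highest of 3242. The median over the other 21163 shEV R1881 regions was 76, and it was 58 over the 3221 regions in both androgen lists alone. The regions were also narrower, with a median width of 361 bp against 470 bp and 417 bp. Regions in shEV EtOH alone had nearly the same median width as the set, 359 bp.

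The share of shEV R1881 regions that were in no other list fell steadily with score. It was 42.5% (40.9 to 44.1%) among scores of 14 to 27, the lowest tier, which held 35.2% of the regions. It was 27.7% among scores of 34 to 42, 19.3% at 50 to 58 and 10.6% at 67 to 95. It was 2.90% at 104 to 191, and 12 of 3052 regions (0.393%) above 200. The share of regions in both androgen lists alone had another shape, with values from 13.0% to 15.3% over the tiers up to a score of 95, then 10.4% and 4.29%. At scores of 67 and above, the regions in both androgen lists alone therefore outnumbered those in the shEV R1881 list alone. The counts by tier were 783 against 578, 454 against 127 and 131 against 12. They leave out the 2668 regions with a shEV R1881 peak, no shEV EtOH peak and a peak in both shFoxA1 lists.

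**Figure D2:**
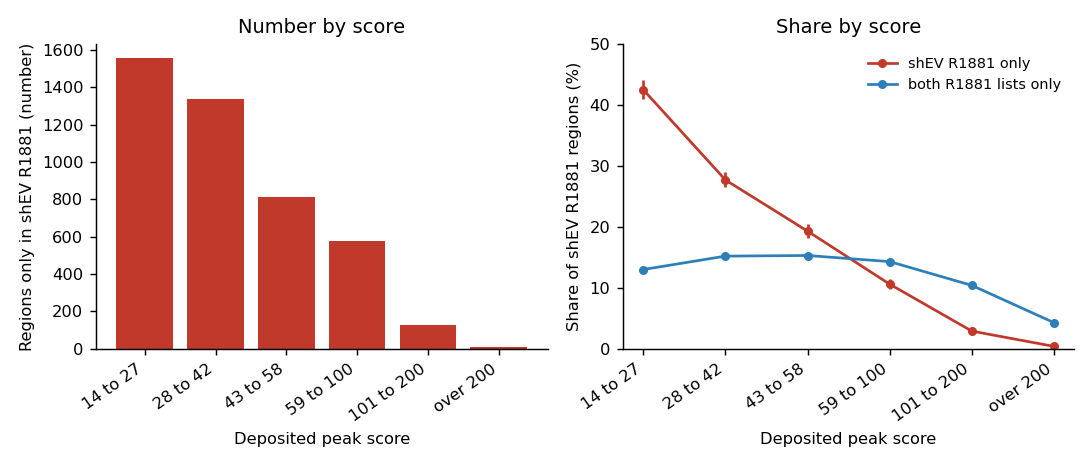
Left, number of regions in the shEV R1881 list alone (vertical axis) by deposited peak score (horizontal axis). Right, share of all shEV R1881 regions of each score tier (%, vertical axis) in that list alone (red, with 95% Wilson intervals) or in both R1881 lists alone (blue); red falls from 42.5% to 0.393%.

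Few of the regions bordered on a peak of another list. The nearest peak of any other list lay a median of 10808 bp away, within 100 bp for 91 regions (2.06%), within 1000 bp for 654 (14.8%) and within 50000 bp for 3858 (87.3%). The median distance was 29353 bp to shEV EtOH, 21004 bp to shFoxA1 EtOH and 17132 bp to shFoxA1 R1881, in the order of the lengths of those lists. At the limit of the overlap rule, regions at LOC728715, LIMCH1 and AQP4 lay 1, 2 and 2 bp from a peak of another list. Regions left out by it at MRRF, FCRL4 and MIR4305 overlapped such a peak by 2, 4 and 4 bp. Within 10 kb of another region of the set lay 345 regions (7.81%). By chromosome, the share of shEV R1881 regions in that list alone was highest on chromosome 21 (19.7%, 16.2 to 23.6%) and lowest among the autosomes on chromosome 19 (13.0%, 11.2 to 15%), a chromosome dense in genes. It was 14% on X and 7.94% on Y, the latter from 5 of 63 regions.

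**Figure D3:**
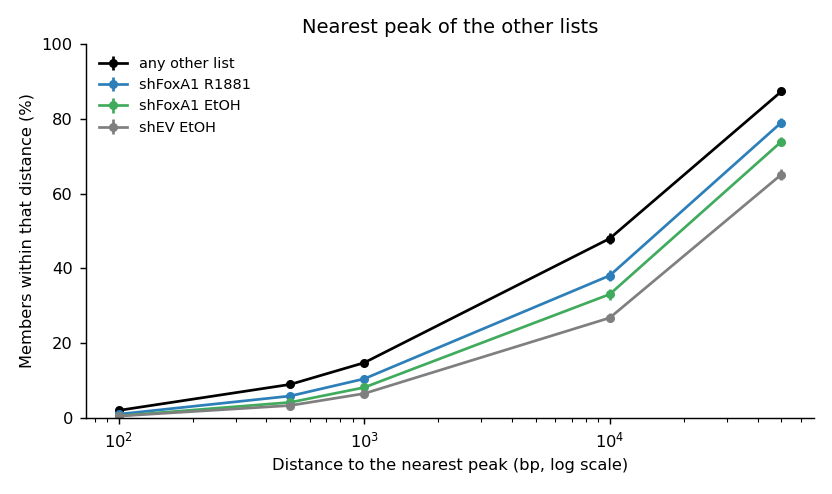
Share of the 4418 regions (%, vertical axis, 95% Wilson intervals) that have a peak of the named list within a given distance (bp, horizontal axis, log scale). For any other list the share rises from 2.06% at 100 bp to 87.3% at 50000 bp.

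The regions lay away from promoters, in introns and between genes. By the deposited annotation, 149 (3.37%, 2.88 to 3.95%) were at promoters, 44.2% in introns, 49.4% between genes and 0.905% in exons. The promoter share was 9.97% over the other shEV R1881 regions, a difference of -6.60 percentage points (-7.24 to -5.90). It was 4.10% over the regions in both androgen lists alone and 4.16% over those in shEV EtOH alone, and the intervals of both differences crossed 0 (-1.62 to 0.128 and -1.61 to 0.0297 points). All 3 kinds of region thus had promoter shares well under 9.97%. By distance, 5.07% lay within 1 kb of a TSS against 14.3% of the other shEV R1881 regions and 6.09% of those in both androgen lists alone, the latter with an interval of the difference that crossed 0 (-2.08 to 0.0202 points). The share was 7.44% for those in shEV EtOH alone, and here the difference of -2.37 points (-3.42 to -1.33) did not cross 0. Of the 1954 intronic regions, 31.9% (29.9 to 34.0%) lay in the first intron, against 35.9% (34.8 to 36.9%) of the other intronic shEV R1881 regions. This share was 32.8% (30.6 to 35.1%) for shEV EtOH alone and 35.6% (33.2 to 38.0%) for both androgen lists alone. These intervals cover counting error within 1 library per group and no spread between cultures.

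L1 elements, the retrotransposons that make up the largest family of mobile DNA in human chromosomes, held a large part of the set. Repeats of any kind were annotated in 3056 regions (69.2%, 67.8 to 70.5%), and L1 in 1775 (40.2%, 38.7 to 41.6%). The L1 share was 29.2% over the regions in both androgen lists alone, a difference of 11.0 points (8.88 to 13.1), and 32.7% over the other shEV R1881 regions. It was higher still, 44.7%, over the regions in shEV EtOH alone. Young L1 subfamilies, from L1HS to L1PA8, made up 18.2% against 13.8%, 13.1% and 22.2% in the same order. The commonest single elements were L1PA5 with 168 regions, L1PA7 with 164, L1PA3 with 142, L1PA4 with 135 and L1PA6 with 102. How uniquely reads map to such young copies was not tested.

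LTR elements, the remains of endogenous retroviruses, were less common in the set than in the rest of the list, except at the lowest scores. They held 10.5% of the regions and 20.8% of the other shEV R1881 regions, a difference of -10.4 points (-11.4 to -9.27). At scores of 14 to 27 the shares were 10.7% and 10.1%, a difference of 0.618 points (-1.37 to 2.66). The difference was -3.73 points (-5.62 to -1.70) in the next tier and -17.1 points (-21.5 to -10.5) at 104 to 191. The LTR share of the other shEV R1881 regions itself rose with score, to 32.4% above 200. Without matching for score, the ERVK family showed 1.02% against 5.06%, and ERV1 3.28% against 7.01%. Regions in both androgen lists alone (11.8% LTR) and in shEV EtOH alone (11.5%) were close to the set, with intervals of the difference that crossed 0. Older elements stood out in the other direction: L2 and MIR held 4.41% of the regions against 2.41% of the other shEV R1881 regions, and DNA transposons 2.85% against 1.33%. Alu elements held 7.51% against 4.68%. Regions in both androgen lists alone exceeded the set for L2 and MIR (5.77%) and for Alu (9.25%). Centromeric satellite held 63 regions (1.43%), against 3.46% of the other shEV R1881 regions.

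**Figure D4:**
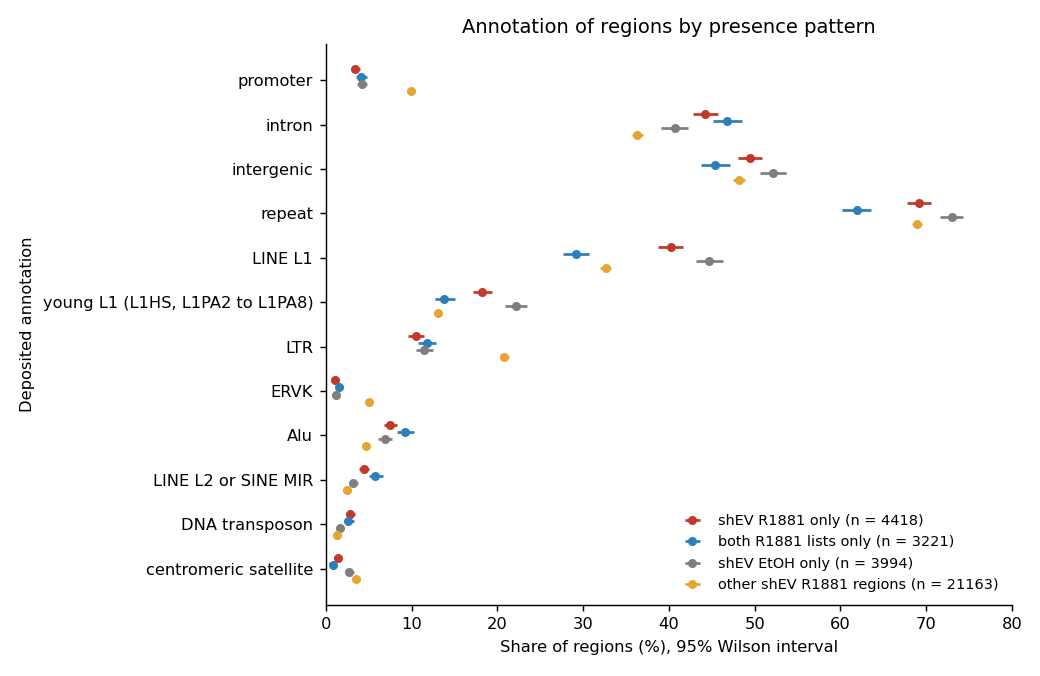
Share of regions (%, horizontal axis, points with 95% Wilson intervals) by deposited annotation (vertical axis) in 4 sets of regions. The red points lie at 3.37% for promoters and 40.2% for L1, against 9.97% and 32.7% for the other shEV R1881 regions in orange.

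Because promoter and repeat shares change with score, they were also set side by side at matched score. The promoter share of the set was lower than that of the other shEV R1881 regions in each of the 5 tiers up to a score of 191. It was 5.28% against 17.8% at scores of 14 to 27, 3.52% against 14.1% at 34 to 42 and 1.98% against 10.7% at 50 to 58. Not one of the 127 regions with scores of 104 to 191 was at a promoter, against 7.03% of the others. The L1 share was higher in the set by 9.05 points (6.02 to 12.1), 10.4 points and 8.54 points in the 3 lowest tiers, and by 4.06 points with an interval that crossed 0 (-0.122 to 8.33) at 67 to 95, whereas at 104 to 191 the difference was -1.16 points (-8.87 to 7.53). For repeats as a whole the set and the other shEV R1881 regions had 69.2% and 68.9%, a difference of 0.273 points (-1.24 to 1.76). By tier that difference ran from 13.2 points in the lowest to -1.03 points (-5.03 to 2.71) at 67 to 95 and -6.83 points (-15.4 to 0.641) at 104 to 191. The base composition followed: the median GC content of the set was 40.6% (40.4 to 40.8%) against 43.1% for the other shEV R1881 regions, 42.5% for both androgen lists alone and 40.3% for shEV EtOH alone. At matched score the medians were 41.8% against 47.0% in the lowest tier and 39.5% against 42.1% at 67 to 95.

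The 20 highest-scoring regions within 50 kb of the TSS of a protein-coding gene had scores from 135 to 636. None was at a promoter, 12 were intronic, 8 intergenic, 11 in repeats and 9 of these in L1. The highest, with a score of 636, lay at chr9:86380296-86380968 in an L1PA4 element, -26222 bp from the TSS of TUT7 (a negative distance is upstream), which encodes an RNA uridylyltransferase. The nearest peaks of other lists were 1205 bp away in shFoxA1 EtOH, 1333 bp in shEV EtOH and 2244 bp in shFoxA1 R1881. The next was at STX11, a syntaxin of immune cells, with a score of 339 at chr6:144134663-144135151 in an L1MC2 element, and there no other list had a peak within 14109 bp. IL20RA, a cytokine receptor subunit, and ELF1, an ETS transcription factor, followed with scores of 226. The ELF1 region was the more isolated, in intron 1 with the nearest other peak at 63552 bp.

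The rest of these 20 spanned unrelated functions. FAM162A and CEP89 had scores of 214. GALNT18, a glycosyltransferase, and PTH, the gene of parathyroid hormone, had scores of 191. EOMES (a T-box factor of early development and lymphocytes), ORC5 (a subunit of the replication origin complex) and WWOX (an oxidoreductase gene at a fragile site) had 179, and ARHGAP6 had 168. NPNT, GAB1, LECT2 and NFIX had 157, among them GAB1, an adaptor of growth factor receptors, and NFIX, a nuclear factor I protein. HMCN1, FAM193A, BDH2 and GIN1 had 135, a score shared by 2 further regions that were left out by position alone. Without the distance limit, the highest scores belonged to tandem repeats: 3242 in an array of short tandem repeats at chr17:21972967-21973280, nearest to the pseudogene UBBP4, and 934 in centromeric alpha satellite on chromosome 1, nearest to EMBP1.

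At promoters the scores were low. The set held 132 regions at promoters of protein-coding genes, and the highest-scoring of them reached 85, at LRRC23 (chr12:6904473-6904794), a protein of cilia and sperm tails. NUDT13, a mitochondrial Nudix hydrolase, and REP15, an effector of the small GTPase RAB15, had 67. PRKACB, a catalytic subunit of protein kinase A, and NDFIP2, an adaptor of NEDD4-family ubiquitin ligases, had 58. AMTN, AP3B1, CEP85L, CTSV, PHF19 and RASA3 had 50. The promoters differed in how isolated they were. The REP15 region had no peak of another list within 44880 bp and the NDFIP2 region none within 38542 bp, whereas a shFoxA1 EtOH peak lay 85 bp from the CEP85L region.

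Of 41 genes known to be induced by androgen in prostate cells, 9 lay near the set and 20 near the regions in both androgen lists alone. A gene was counted when it was the deposited nearest gene of a region within 50 kb of its TSS, and peaks of the other lists were assigned to genes in the same way, so a peak nearer to a neighbouring gene is not counted. Over all 20037 protein-coding genes, 1685 (8.41%) had such a region. The 9 androgen-induced genes were 22% of their list (12 to 36.7%) and had 11 regions. Regions in both androgen lists alone were near 48.8% of the list (34.3 to 63.5%) and 6.78% of all coding genes, and regions in shEV EtOH alone near 4 (9.76%) and 7.27%. Regions of shEV R1881 shared with any other list include those in both androgen lists alone. They were near 29 genes of the list (70.7%, 55.5 to 82.4%) and 33.5% of all coding genes. The genes CAMKK2, KRT8 and SCAP had both a region of the set and one in both androgen lists alone. Differences between these shares of the list were not tested. All 9 genes also had a peak of at least one other list assigned to them. KLK3, which encodes prostate-specific antigen, and its neighbour KLK2, classic androgen-induced genes, had none of the set.

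The 9 genes were KRT8, HERC3, SPDEF, ABCC4, TMPRSS2, STEAP4, PLPP1, CAMKK2 and SCAP. KRT8, a keratin of luminal cells, had the highest score, 76, in a region at chr12:52907759-52908312 in intron 1, with peaks assigned to the gene numbering 0 and 2 for shEV (EtOH, then R1881) and 0 and 1 for shFoxA1. The peaks assigned to KRT8 thus all came from the libraries with androgen. TMPRSS2, a serine protease whose promoter is fused to ERG in many prostate tumours, had 0, 2, 3 and 4 peaks in the same order, and both of its shEV R1881 peaks belonged to the set. One had a score of 50 at -12532 bp (chr21:41520512-41520869), and the other, named here after its values were seen, had 27 at the promoter (-877 bp), 885 bp from a shFoxA1 R1881 peak. TMPRSS2 was therefore not without mTOR peaks after FoxA1 knockdown: they lay elsewhere in its surroundings.

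HERC3, a ubiquitin ligase of the HECT family, had 2 regions with scores of 58 and 50 and 1, 2, 2 and 1 peaks in the 4 lists. SPDEF, an ETS factor of luminal epithelium, had 1 region with a score of 50, 1527 bp from a shFoxA1 R1881 peak, and 2, 3, 2 and 5 peaks. ABCC4, a transporter of cyclic nucleotides and drugs, had 1 with a score of 50 and 1, 2, 1 and 4 peaks. The 4 remaining genes, chosen after their values were seen, had the lower scores of 42 (STEAP4, a metalloreductase), 34 (PLPP1, a lipid phosphatase), 34 (CAMKK2, a kinase that activates AMPK) and 20 (SCAP, the escort protein of SREBP). STEAP4 had 0, 2, 1 and 0 peaks and was the only one of the 9 without a shFoxA1 R1881 peak. The list of androgen-repressed genes had 1 of 12 near the set, CDH2, the gene of N-cadherin, with a score of 58 in intron 1 and the nearest other peak at 88909 bp.

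**Figure D5:**
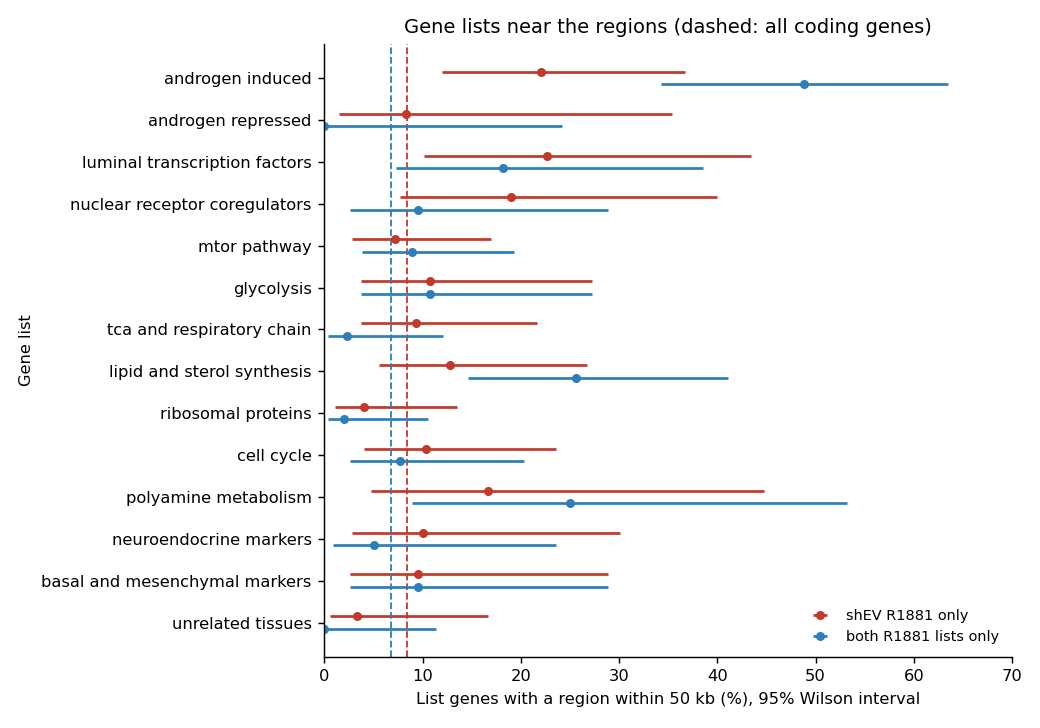
Share of the genes of each list (vertical axis) with a region within 50 kb (%, horizontal axis, points with 95% Wilson intervals) for the regions in shEV R1881 alone (red) and in both R1881 lists alone (blue). Dashed lines give the shares over all coding genes, 8.41% and 6.78%; for androgen-induced genes the points lie at 22% and 48.8%.

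Transcription factors of luminal prostate cells and coregulators of nuclear receptors were also represented. Of 22 luminal factors, 5 (22.7%, 10.1 to 43.4%) had a region: ONECUT2, SPDEF, GATA2, FOXA1 and GRHL2. GATA2, a zinc finger factor of androgen-responsive enhancers, had 2 regions with scores of 42 and 20, 40 bp and 131 bp from a peak of a shFoxA1 list, and 1, 5, 2 and 4 peaks in shEV EtOH, shEV R1881, shFoxA1 EtOH and shFoxA1 R1881. FOXA1 itself, the target of the hairpin, had 1 region with a score of 42 in an L1MEg1 element, 38155 bp from its TSS at chr14:37556838-37557351, and 3, 3, 5 and 5 peaks. Of 21 coregulators, 4 (19.0%, 7.67 to 40.0%) had a region, and TLE1, a corepressor of the Groucho family, had the highest score, 85, in intron 2. The others were PPARGC1B (34), HDAC1 (27) and PIAS1 (27). With so few genes the intervals of both lists are wide, and that of the coregulators includes the 8.41% of all coding genes. The luminal share was 18.2% for regions in both androgen lists alone, 9.09% for shEV EtOH alone and 59.1% for the other shEV R1881 regions. The coregulator share was 9.52%, 14.3% and 61.9% in the same order. All coding genes had 6.78%, 7.27% and 33.5%.

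Of 56 genes of the mTOR pathway itself, 4 (7.14%, 2.81 to 17%) were near the set, beside 8.41% of coding genes. They were SESN1 (34) and DDIT4 (20), both stress-induced inhibitors of mTOR complex 1, FNIP2 (27), a partner of folliculin, and SLC38A9 (27), an amino acid sensor of the lysosome, with peak scores in parentheses. None of these regions was at a promoter. The SLC38A9 region lay in an Alu element 1261 bp from a shFoxA1 EtOH peak, and the gene had 5, 4, 7 and 6 peaks in the 4 lists. DDIT4 had 1, 2, 3 and 4 peaks.

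Metabolic genes were near the set at shares whose intervals all included that of coding genes. Of 28 glycolysis genes, 3 (10.7%) had a region: HK2, the first enzyme of glycolysis, with a score of 104 in an L1P1 element at -34940 bp, GPI with 50 and the glucose transporter SLC2A1 with 20. Of 43 genes of the citrate cycle and respiratory chain, 4 (9.30%) did: COX6C (104), DLD (95), SUCLA2 (42) and CS (34), with CS, citrate synthase, in intron 1. Of 39 genes of lipid and sterol synthesis, 5 (12.8%) had 8 regions, against 10 genes (25.6%) for the regions in both androgen lists alone. ELOVL7, a fatty acid elongase, had 2 regions in intron 1 with scores of 104 and 34. ACACA, the enzyme of the first step of fatty acid synthesis, had 3 with scores of 42, 34 and 14, the last named after its values were seen, and 1, 6, 4 and 3 peaks in the 4 lists. Of 12 polyamine genes, AMD1 (50) and PAOX (34, at its promoter) had a region.

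The remaining lists are given beside the 8.41% of all coding genes. Of 39 cell cycle genes, 4 did (10.3%): CDK1 (50), AURKB (27), RB1 (20) and CDK6 (14), and the AURKB region, at the promoter of this mitotic kinase, lay -174 bp from its TSS. Ribosomal protein genes had 2 of 50 (4%), among them RPS27. Neuroendocrine markers had 2 of 20 (10%), ONECUT2 and INSM1, and basal or mesenchymal markers 2 of 21 (9.52%), CDH2 and TP63. TP63, the master factor of basal cells, had 3 regions with scores of 67, 34 and 20, none nearer than 40406 bp to a peak of another list. Genes of unrelated tissues had 1 of 30 (3.33%), KRT1, a keratin of the epidermis, whose region lies in the same keratin cluster of chromosome 12 as that of KRT8.

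Most genes had a single region. Among the 1685 coding genes, 1518 had 1, 145 had 2 and 22 had 3 or more. KANSL1, a subunit of a histone acetyltransferase complex, had 7, all with scores of 50 or less, of 12 shEV R1881 peaks, and 11, 13 and 10 peaks in shEV EtOH, shFoxA1 EtOH and shFoxA1 R1881. The KANSL1 regions were thus spread among peaks of every list, and 2 of them lay 58 bp and 94 bp from one. FRG1HP, a pseudogene, had 5, and FHIT (a fragile site gene), NKX6-2 (a homeobox gene) and SIGLEC15 (an immune receptor) had 4 each. SIGLEC15 had 5 shEV R1881 peaks against 1, 0 and 2 in the other lists, and its 4 regions lay in repeats upstream of the gene, from -13308 to -46348 bp. Of 23 genes with 3 regions, ACP6, MPC2, RHOB, RAB6B and NAALADL2-AS3 came first by position. At RAB6B, a GTPase of the Golgi, all 3 shEV R1881 peaks belonged to the set, with scores of 76, 42 and 27, the last at the promoter, and the other lists had 0, 0 and 1. MPC2, a subunit of the mitochondrial pyruvate carrier, had no shEV EtOH peak and 3 in each shFoxA1 list.

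Most of the genes were also the nearest gene of other mTOR peaks. Of the 1685 coding genes near the set, 1391 (82.6%) also had a peak of another list assigned to them within 50 kb, 942 of them in shEV EtOH, 1166 in shFoxA1 EtOH and 1237 in shFoxA1 R1881. The share of all coding genes with such a peak was 61.4%. The other 294 genes (17.4%) were the nearest gene of shEV R1881 peaks alone, and a peak of another list could still lie nearby, as at PAOX, where one nearest to another gene lay 20527 bp from the region. Among luminal markers of LNCaP, FOXA1, TMPRSS2 and KRT8 had a region of the set, and KLK3, KLK2, HOXB13 and KRT18 had none. HOXB13 had 3, 3, 7 and 6 peaks in shEV EtOH, shEV R1881, shFoxA1 EtOH and shFoxA1 R1881.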

How the data were processed

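mTOR chromatin immunoprecipitation libraries from LNCaP cells were analysed from the peak lists the authors deposited, 1 library per group. Per the submitters' processing notes, the build was hg38 and the tools included deepTools 3.5.0, HOMER 4.11.1, MACS2, BWA 0.7.12, Picard 2.0.1 and Trimmomatic 0.36, with no role or order. Per the file headers, each list is HOMER annotation output for peaks called in a single library; the sources read do not state the control, threshold or duplicate handling. The peak score was deposited by the authors and used only within its own list. The GC content was deposited as a fraction of the peak's bases, per the file headers, and printed as a percentage. Read totals were not used here, so depth is unknown.

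From these, peaks were merged at 1 bp of overlap with Python 3.11.15 and pandas 2.3.3, checked on simulated data, and shares were given 95% Wilson intervals and differences Newcombe intervals, which cover counting error only. No test was possible with 1 library per group, and no p-value is given. Genes are the deposited nearest genes, matched by identifier to RefSeq; all 434 list genes matched. Promoter sequences come from RefSeq GRCh38.p14. Other regions' sequences were not analysed here, for want of a genome. Named genes are the 20 highest-scoring regions within 50 kb of a coding gene, up to 6 regions per list, the 10 genes with most regions, the 12 highest-scoring promoter regions and the 3 regions on each side of the overlap limit; some genes under this rule are not reported here. The regions, the 14 gene lists and the motifs were chosen with earlier results of these data known. Alternatives tried were the overlap, list lengths, score cut, repeats, gene distance and, added after seeing the data, leaving out each other list.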

Additional observations from a re-analysis of the deposited data

How the results depend on the processing

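The number of regions depended on which peaks were admitted. It was 4418 as reported and stayed within 1.5 times of that, from 3991 to 5602, when a 50% overlap was required, peaks up to 500 bp apart were merged, every list was cut to 24948 peaks, or the shEV EtOH or shFoxA1 EtOH list was not used. It was 1791 from the 10000 highest-scoring peaks of each list, 1055 at or above the list's median score, 1814 without repeat peaks and 7768 when the shFoxA1 R1881 list was not used. The score cut kept regions of the 4418 only. Cutting the lists or leaving out repeat peaks also removed peaks of the other lists, so these counts include regions outside the 4418, of which 3056 were in repeats. The shares and medians given below for those settings describe these regions and not a subset of the 4418. The promoter share (3.37%) was 4% with a 50% overlap, 2.81% with merging to 500 bp, 4.51% with lists of equal length, 0.758% at or above the median score, 8.27% without repeat peaks and 4.77% without the shFoxA1 EtOH list. The repeat share (69.2%) was 67.5% with a 50% overlap, 73.1% from the 10000 highest-scoring peaks, 67.6% with lists of equal length, 72.8% at or above the median score, 71.1% without the shEV EtOH list and 65.8% without the shFoxA1 R1881 list, and it cannot be given without repeat peaks. The median GC content (40.6%) was 39.5% from the 10000 highest-scoring peaks, 41% with lists of equal length, 39.4% at or above the median score, 43.9% without repeat peaks and 41.5% without the shFoxA1 R1881 list.

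The 9 androgen-induced genes became 2 at or above the median score, 26 when the shFoxA1 R1881 list was not used and 5 within 10 kb, and ranged from 8 to 12 under the 8 other settings. Equal counts need not mean the same genes. The 10000 highest-scoring peaks also gave 9. Yet regions of the set scored 76 at KRT8 and 58 or less at the other genes. The shEV R1881 tiers at 67 to 95, 104 to 191 and above held 5473, 4378 and 3052 regions. That count of 9 therefore rested largely on regions outside the set. The 20 genes near regions in both androgen lists alone became 16 with lists of equal length, 11 from the 10000 highest-scoring peaks, 16 at or above the median score and 15 without repeat peaks. The causes were not tested beyond what each setting removes. No paired analysis was possible because each group has 1 library and no result comes from a test. Score, list length and unknown depth limit every absence: a region missing from a thresholded list may still hold reads below its threshold.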

Other observations

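Among the other genes with 3 regions, named here after their values were seen, 2 encode enzymes of steroid metabolism. UGT2B28, a glucuronosyltransferase that conjugates androgens, had 5 shEV R1881 peaks assigned to it within 50 kb, none in shEV EtOH or shFoxA1 EtOH, and 2 in shFoxA1 R1881. Its 3 regions had scores of 58, 85 and 27, lay 6950, 16072 and 29395 bp downstream of its TSS, and the last was 336 bp from a shFoxA1 R1881 peak. AKR1D1 encodes the steroid 5-beta reductase of bile acid synthesis and steroid breakdown. The gene had 4 such shEV R1881 peaks, none with vehicle under either hairpin, and 1 in shFoxA1 R1881. Its 3 regions had scores of 50, 42 and 42, all in repeats. ETV6, an ETS repressor, had 3 regions in repeats with scores of 76, 50 and 27.

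Of the 294 coding genes that were the nearest gene of shEV R1881 peaks alone, those with the highest scores, chosen after their values were seen, were BDH2 (135), FILIP1L (114), TG (114), RYR2 (104), FAM229B (104) and ADAMTS20 (104). BDH2 encodes a cytosolic dehydrogenase and TG thyroglobulin. The distances of their regions to the nearest peak of another list ran from 24794 bp at FILIP1L to 102373 bp at TG. Of the gene lists above, CS, RPS27, PAOX, CDH2 and KRT1 were likewise the nearest gene of no peak of another list within 50 kb, although peaks nearest to other genes lay 17222 bp from the RPS27 region and 21666 bp from the CS region.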
